A study of Mus musculus with 9 samples.

Results

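PGC-1α without its C-terminal domain, here dCTD, was expressed in cultured mouse muscle fibres and the RNA of these cells was compared with that of cells given the bacterial enzyme LacZ as control. The comparison rests on 6 of the 9 RNA-seq libraries of the series, 3 with dCTD and 3 with LacZ, and on the 18066 of 55421 listed genes whose mean normalized count over these libraries was at least 10. Both groups were C2C12 myotubes, fibres formed by fusion of an established mouse myoblast line, that had been differentiated for 4 days in medium with horse serum. Adenovirus was applied at a multiplicity of infection of 3 for 4 h, and RNA was taken after 48 h in all. The dCTD virus carried PGC-1α with HA and Flag tags and without the domain, in cells that keep their own Ppargc1a gene, and the LacZ virus carried the control enzyme. The 3 remaining libraries carried tagged full-length PGC-1α, here FL, and are used only to test where dCTD differed from FL. The promoter of the viruses and the residues removed are not given in the sources used here.

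PGC-1α is a transcriptional coactivator: it binds no DNA itself but docks through its front part on nuclear receptors such as the estrogen-related receptors (ERRs) and on other factors, and recruits the transcription machinery to their target genes. Its back part holds an RS-rich stretch and an RNA recognition motif and has been tied to RNA binding and splicing. In muscle it is known for raising mitochondrial respiration and fat use, and it is induced by exercise and fasting. The dCTD libraries show how transcript counts differed from those with LacZ when the virus carried PGC-1α without the back part. Direct and indirect effects cannot be told apart in them.

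Ppargc1a (ENSMUSG00000029167, chromosome 5, 51454250 to 51567726 in mm10) is the gene carried by the virus. Its normalized count was 101906, 123092 and 117652 with dCTD, against 416, 389 and 407 with LacZ. All dCTD libraries lay far above all LacZ libraries, with means of 114217 ± 11003 with dCTD and 404 ± 13.5 with LacZ (SD, n = 3 each), a 283-fold difference and a log2 fold change of 8.13 ± 0.06 (limma, adjusted p = 1.9e-22). The counts do not separate the virus from the cell's own gene.

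Total counts were 87090490 to 110673140 with dCTD and 110309704 to 118931863 with LacZ, and 25707 to 26726 genes had a read. The typical gene varied by a coefficient of variation of 4.73% between dCTD libraries and 5.01% between LacZ libraries. A principal component with 79.7% of the variance separated the groups, and the next, with 5.95%, set dCTD replicate 2 apart from the other dCTD libraries. The 37 genes of mitochondrial DNA had 0 reads in these files, so the mitochondrial genes below are all nuclear. The muscle markers were present in both groups: the muscle creatine kinase Ckm had a mean of 25865 ± 1965 with dCTD and 24224 ± 1421 with LacZ, the giant sarcomere protein gene Ttn 135942 ± 11139 with dCTD and 125238 ± 13639 with LacZ and the intermediate filament gene Des 261101 ± 10302 with dCTD and 230643 ± 10101 with LacZ. Des was called higher with dCTD, at 0.18 on the log2 scale, while Ckm and Ttn did not pass. Of the other muscle markers chosen, Myh3, Acta1, Myog and Mymk were present but lower with dCTD, and Ryr1 did not pass, as given below. In RNA from whole cultures, fewer fibres and less RNA per fibre cannot be told apart.

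A broad set of genes differed between dCTD and LacZ. With dCTD 4172 genes were higher (23.1% of those tested) and 3922 were lower (21.7%) by limma with Benjamini-Hochberg adjustment at a threshold of 0.05, together 44.8%. Scaling the libraries by total count instead turned the balance, to 3995 higher and 4257 lower. In the first scaling the median log2 fold change was 0.40 among the higher genes and -0.28 among the lower ones. Changes of at least 2-fold were found upward for 776 genes (4.3%) and downward for 480 (2.66%), and changes of at least 3 log2 units for 111 genes upward and 8 downward. Protein-coding genes passed in 50.8% of 13932 cases and lncRNA genes in 32.1% of 1881. The share that passed was 21.5% in the lowest of 5 equal classes by mean count (means up to 47.3) and 55.7% in the highest (means from 7326), so a gene with few reads had less chance to pass. Every count of a gene list against LacZ below is to be read against 23.1% higher and 21.7% lower. Counts of a list against FL are to be read against 17.8% higher and 22.4% lower. Between dCTD and LacZ the groups did not overlap for 26.3% of tested genes with dCTD above and 26.1% with dCTD below. Genes named below for the highest or lowest fold changes were selected for no overlap, so their separation is no added support.

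**Figure D1:**
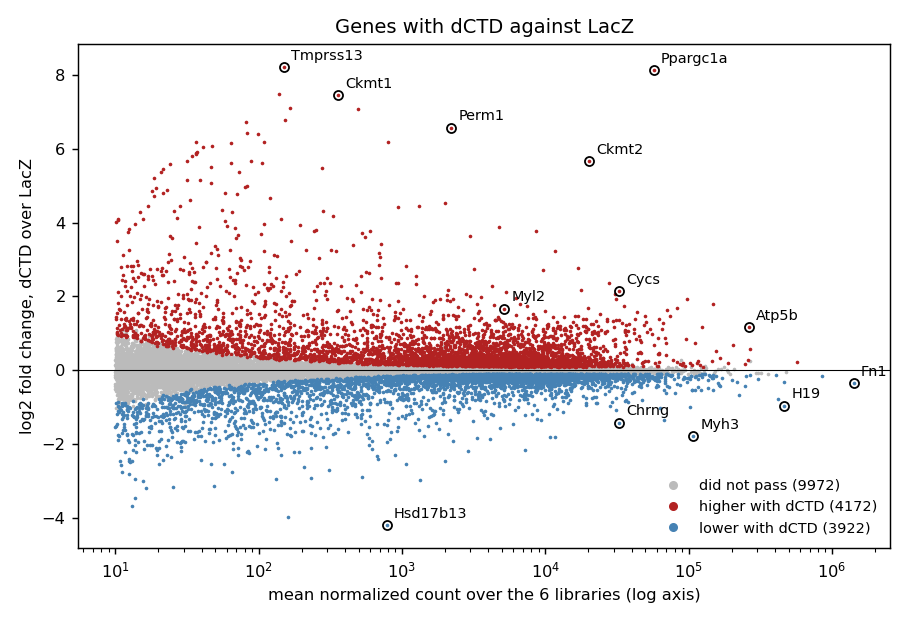
Log2 fold change of dCTD over LacZ (vertical axis) against the mean normalized count over 6 libraries (horizontal log axis) for the 18066 tested genes. Red points are the 4172 higher genes, blue points the 3922 lower ones and grey points did not pass, and circles mark genes named in the text.

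The tested nuclear genes of the respiratory chain rose as a whole. Of the subunit and assembly genes tested, 36 of 36 of complex I, 13 of 13 of complexes II and III, 15 of 15 of complex IV with cytochrome c and 16 of 16 of ATP synthase were higher, and 0 were lower. Their median log2 fold changes were 0.92, 1.22, 0.93 and 1.02, against -0.01 over all tested genes. The members did not rise evenly. Cox7a1, the muscle form of a complex IV subunit, had normalized counts of 14878, 15336 and 17720.4 with dCTD, against 1101, 1273 and 1116 with LacZ, a log2 fold change of 3.78 ± 0.07 (limma, adjusted p = 9.7e-15). Cycs, the soluble electron carrier cytochrome c, had 51798, 52510.1 and 55262 with dCTD, against 11429, 12181 and 12529 with LacZ, a log2 fold change of 2.14 ± 0.04 (limma, adjusted p = 4.4e-22). Both genes had all dCTD libraries several-fold above all LacZ libraries. Other muscle forms of complex IV moved far less: Cox6a2 rose by 0.39 ± 0.05 and Cox8b by 0.41 ± 0.06 on the log2 scale, with groups that did not overlap. Cyc1, the cytochrome of complex III, rose by 1.74 ± 0.04, the complex I subunit Ndufb10 by 1.45 ± 0.04 and Atp5g1, a gene for the rotor ring of ATP synthase, by 1.94 ± 0.05. The smallest rises in these lists were those of the complex I subunit Ndufa7 at 0.14 ± 0.05, where the groups overlapped, and of the ATP synthase inhibitor Atpif1 at 0.16 ± 0.05. Ndufa7 missed the threshold without dCTD replicate 1 (adjusted p = 0.10), dCTD replicate 3 (0.12) or LacZ replicate 1 (0.10), and Atpif1 without dCTD replicate 3 (0.053). By normalized counts gained, Atp5b, the catalytic β subunit of ATP synthase, stood first of all genes, with 352460, 358210 and 383706 with dCTD, against 157920, 165005 and 163641 with LacZ.

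Promoters of genes that rose and fell are shown for the letters that ERRs and muscle factors are known to read, from RefSeq (GRCm38.p6, the assembly called mm10), 250 bases before to 50 after a start site. Perm1 and Ckmt1 are shown as genes with some of the highest fold changes, and Atp5g3, Sdhd and Cycs as respiratory chain genes. Mylpf is shown as the fast light chain gene that fell. The pairs of gene and site were picked by hand, and every window shown holds its site. These examples therefore do not tell how common a site is, for which the shares below are given. Capitals mark the ERR half-site AAGGTCA (here on the other strand, as TGACCTT) in Perm1 and Ckmt1. They also mark the longer ERR site TNAAGGTCA, which contains the half-site, in Atp5g3 and Sdhd. In Cycs they mark the CREB site TGACGTCA and in Mylpf the E-box CAGCTG. Only the site named for a gene is marked in its window, so other sites may stand there in small letters. The Ckmt1 window also holds the E-box CAGCTG, though Ckmt1 rose.
Perm1 (chr4:156215677-156215976, plus strand): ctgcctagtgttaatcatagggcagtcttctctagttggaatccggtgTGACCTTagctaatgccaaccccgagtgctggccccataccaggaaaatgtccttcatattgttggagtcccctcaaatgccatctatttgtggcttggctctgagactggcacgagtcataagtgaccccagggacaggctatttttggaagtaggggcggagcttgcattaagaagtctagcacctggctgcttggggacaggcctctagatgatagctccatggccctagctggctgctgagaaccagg
Ckmt1 (chr2:121357526-121357825, plus strand): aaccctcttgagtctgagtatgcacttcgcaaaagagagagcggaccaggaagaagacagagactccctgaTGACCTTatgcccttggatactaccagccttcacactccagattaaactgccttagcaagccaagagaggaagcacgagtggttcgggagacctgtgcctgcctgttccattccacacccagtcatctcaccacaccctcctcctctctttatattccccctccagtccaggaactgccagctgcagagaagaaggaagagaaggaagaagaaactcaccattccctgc
Atp5g3 (chr2:73911277-73911576, minus strand): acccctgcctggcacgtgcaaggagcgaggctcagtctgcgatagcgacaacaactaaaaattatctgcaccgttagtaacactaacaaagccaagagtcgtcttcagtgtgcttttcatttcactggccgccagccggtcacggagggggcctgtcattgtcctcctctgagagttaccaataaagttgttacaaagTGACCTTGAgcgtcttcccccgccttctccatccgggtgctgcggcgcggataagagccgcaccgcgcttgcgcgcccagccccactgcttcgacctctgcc
Sdhd (chr9:50603800-50604099, minus strand): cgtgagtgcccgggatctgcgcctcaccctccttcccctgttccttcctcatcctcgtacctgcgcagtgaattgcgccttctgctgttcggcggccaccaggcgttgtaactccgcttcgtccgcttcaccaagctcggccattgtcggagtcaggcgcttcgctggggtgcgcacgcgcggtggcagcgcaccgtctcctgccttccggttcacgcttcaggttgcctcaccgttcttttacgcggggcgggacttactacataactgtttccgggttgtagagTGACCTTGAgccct
Cycs (chr6:50566520-50566819, minus strand): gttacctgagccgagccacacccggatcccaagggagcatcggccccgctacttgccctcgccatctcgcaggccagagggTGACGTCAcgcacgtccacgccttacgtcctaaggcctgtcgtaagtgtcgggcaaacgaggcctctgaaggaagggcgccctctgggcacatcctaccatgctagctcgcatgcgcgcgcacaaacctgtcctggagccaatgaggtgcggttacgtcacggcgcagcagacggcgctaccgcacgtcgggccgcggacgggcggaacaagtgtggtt
Mylpf (chr7:127211358-127211657, plus strand): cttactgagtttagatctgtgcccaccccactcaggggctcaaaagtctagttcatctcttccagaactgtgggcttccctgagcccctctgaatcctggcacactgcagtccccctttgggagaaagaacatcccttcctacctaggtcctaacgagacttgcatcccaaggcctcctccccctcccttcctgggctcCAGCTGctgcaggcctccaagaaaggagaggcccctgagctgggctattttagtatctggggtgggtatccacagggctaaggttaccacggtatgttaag
Over both strands, the ERR half-site was found in 9 of 71 windows of respiratory chain genes (12.7%), in 45 of 644 windows of genes at least 2-fold higher (6.99%), in 22 of 409 windows of genes at least 2-fold lower (5.38%) and in 531 of 15216 windows of all tested genes (3.49%). The longer ERR site was in 3 of 71 respiratory chain windows (4.23%) and in 2 of 50 sarcomere windows (4.0%). It was in 13 of 644 windows of genes at least 2-fold higher (2.02%) and in 9 of 409 at least 2-fold lower (2.20%). Over all tested windows its share was 0.85%. The CREB site was in 5 of the 71 respiratory chain windows (7.04%) and in 2.78% of all tested windows. The half-site was in 1 of 31 TCA cycle windows (3.23%), 2 of 49 mitochondrial ribosome windows (4.08%) and 3 of 34 fatty acid oxidation windows (8.82%), so not every list that rose held it more often than all tested windows. Of other sites searched, that of NRF1 was in 7.04% of respiratory chain windows and 1.75% of all tested windows, that of YY1 in 5.63% and 1.28%, and the ETS site CCGGAAGTG in 2.82% and 3.80%. The E-box was in 18 of 50 sarcomere windows (36.0%), a set that mostly fell, but also in 9 of 34 fatty acid oxidation windows (26.5%), a set that mostly rose, against 16.3% of all tested windows. These letters are a description of the windows and not evidence of binding. The table held windows for 11899 of the 18066 tested genes.

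The other mitochondrial groups rose with the chain. In the TCA cycle and pyruvate group 25 of 26 genes were higher and 0 lower, with a median of 1.06. Idh3a, the catalytic subunit of the NAD-dependent isocitrate dehydrogenase, had 48900.2, 49443 and 50117 with dCTD, against 11811, 11731 and 11981 with LacZ, a log2 fold change of 2.06 ± 0.04 (limma, adjusted p = 9.9e-23). Citrate synthase, Cs, had 88025, 89048 and 90369 with dCTD, against 34624, 34471 and 33811 with LacZ, a log2 fold change of 1.38 ± 0.04 (limma, adjusted p = 2.2e-19). In both the libraries of each group lay close together and the groups were far apart. The cytosolic malate dehydrogenase Mdh1, which is in this list, rose by 1.94 ± 0.05. The pyruvate carboxylase Pcx, which refills the cycle, did not pass at -0.10 ± 0.05. It passed as lower without dCTD replicate 3 (adjusted p = 0.016) and when libraries were scaled by total count (0.037).

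Building and supply of the organelle followed. The mitochondrial ribosome rose in 49 of 54 genes (median 0.60), mitochondrial DNA upkeep and transcription in 19 of 22 (0.65), import and chaperones in 25 of 27 (0.76) and fusion and fission in 12 of 13 (0.49), with 0 lower in each. Mrpl12, a ribosomal protein that also binds the mitochondrial RNA polymerase, rose by 1.44 ± 0.05 and the chaperonin Hspd1 by 1.07 ± 0.04. Tfam, the packaging and transcription factor of mitochondrial DNA, had 9679, 9925 and 9686 with dCTD, against 5190.4, 5644 and 5868 with LacZ, a log2 fold change of 0.81 ± 0.04 (limma, adjusted p = 7.7e-14). The helicase Twnk rose by 0.86 ± 0.04, and 12.6% of its exon bases are shared with Mrpl43 on the other strand, whose reads may be counted with it. The outer and inner membrane fusion genes Mfn2 and Opa1 rose by 0.71 ± 0.04 and 0.82 ± 0.04. Among inner membrane carriers 24 of 33 were higher, led by Slc25a34, a carrier of the oxaloacetate family, with 1477, 1678 and 1592 with dCTD, against 20.2, 18.5 and 24.3 with LacZ, a log2 fold change of 6.18 ± 0.11 (limma, adjusted p = 2.3e-22). Slc25a4, the muscle ADP/ATP carrier, rose by 1.29 ± 0.04, while the uncoupling protein gene Ucp2 did not pass at -0.09 ± 0.04, passing as lower without dCTD replicate 3 (adjusted p = 0.019), without LacZ replicate 1 (0.048) and under total-count scaling (0.034). In the coenzyme Q, heme and iron-sulfur group 29 of 33 were higher and 1 lower. Pdss1, which makes the coenzyme Q side chain, rose by 2.02 ± 0.06, the coenzyme Q kinase Coq8a by 1.35 ± 0.04 and Alas1, the first enzyme of heme synthesis, by 1.44 ± 0.04. Among antioxidant genes the mitochondrial superoxide dismutase Sod2 rose by 1.47 ± 0.04, while the heme oxygenase Hmox1 fell by 0.20 ± 0.04. Of 18 NAD and sirtuin genes 6 were higher and 1 lower. Among them the mitochondrial deacylase genes Sirt3 and Sirt5 rose by 1.59 ± 0.05 and 1.53 ± 0.05. Sirt3 shares 7.0% and 5.73% of its exon bases with Ric8a and Psmd13 on the other strand. Their means were 8436 and 12307 with dCTD and 13535 and 12843 with LacZ.

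**Figure D2:**
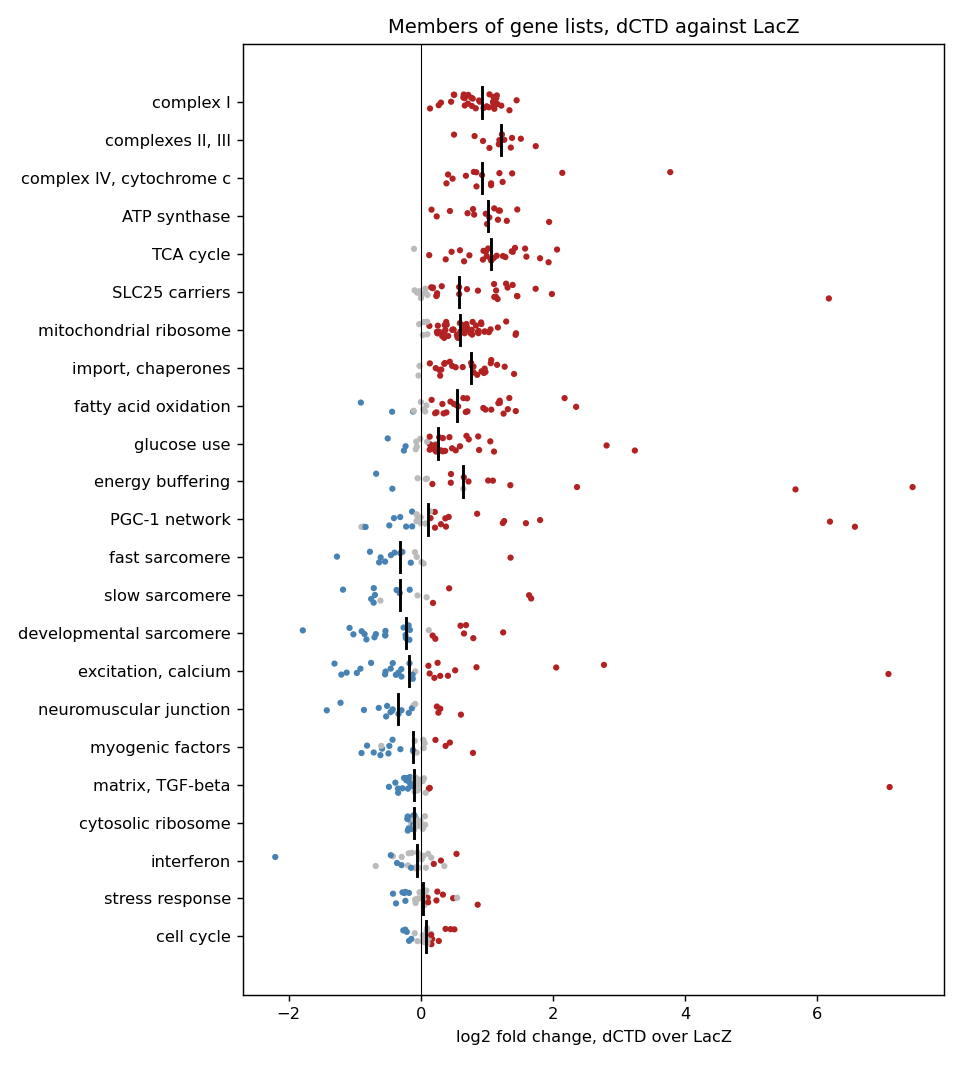
Log2 fold change of dCTD over LacZ for each tested member of 23 gene lists. Red points were higher, blue points lower, grey points did not pass, and black bars are medians, which lie above 0 in the mitochondrial lists and below 0 in the sarcomere, excitation and junction lists.

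Genes for burning and buffering fuel were the next group. In fatty acid uptake and oxidation 26 of 34 rose and 3 fell (median 0.55). Acacb, the mitochondrial acetyl-CoA carboxylase whose product restrains fat entry, rose by 2.35 ± 0.07 and the fatty acid binding protein Fabp3 by 2.18 ± 0.05. The fatty acid transporter Cd36 rose by 0.71 ± 0.05. The uncoupling protein gene Ucp3 fell by 0.91 ± 0.16, with 52.2, 55.2 and 67.6 with dCTD, against 96.2, 130.1 and 105 with LacZ, so that all its dCTD libraries were below all LacZ libraries. The peroxisome, which handles long and branched chains, showed 14 of 31 genes higher and 2 lower. There Phyh, for branched chain breakdown, rose by 2.12 ± 0.04. The count of 2 lower was 1 without dCTD replicate 1 or 3 and without LacZ replicate 1 or 3. Of ketone and branched-chain amino acid genes 19 of 21 were higher and 0 lower. Bdh1, which interconverts ketone bodies, had 3686, 3899 and 3979 with dCTD, against 168, 141 and 193 with LacZ, a log2 fold change of 4.53 ± 0.09 (limma, adjusted p = 7.8e-18). Oxct1, the enzyme that commits ketone bodies to oxidation, rose by 1.39 ± 0.04.

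Glucose genes rose in 25 of 34 cases with 3 lower (median 0.26), 5 without LacZ replicate 1. The insulin-responsive transporter Slc2a4 had 1730.1, 1941 and 1914 with dCTD, against 287, 249.6 and 256 with LacZ, a log2 fold change of 2.81 ± 0.07 (limma, adjusted p = 7.8e-20). Ldhb, the lactate dehydrogenase subunit typical of oxidative tissue, rose by 3.24 ± 0.05, while the glycolytic subunit Ldha rose by 0.24 ± 0.06 and missed the threshold without dCTD replicate 3 (adjusted p = 0.067). Of the hexokinases, Hk1 rose by 1.11 ± 0.04 and Hk2 fell by 0.26 ± 0.04. Pdk4, which shuts off pyruvate oxidation, rose by 1.43 ± 0.04. The creatine kinases split sharply. Ckmt2, the muscle mitochondrial form, had 37840.0, 40135 and 41727 with dCTD, against 730.5, 828 and 783 with LacZ, a log2 fold change of 5.67 ± 0.05 (limma, adjusted p = 3.2e-28). Ckmt1, the ubiquitous mitochondrial form, had 680.4, 696 and 756 with dCTD, against 2.75, 3.89 and 2.69 with LacZ, a log2 fold change of 7.45 ± 0.18 (limma, adjusted p = 3.6e-20). The cytosolic Ckm did not pass at 0.09 ± 0.05 (adjusted p = 0.16), though it did without dCTD replicate 2 (0.0067) or LacZ replicate 2 (0.033). Got1, the cytosolic transaminase of the malate-aspartate shuttle, rose by 2.37 ± 0.04.

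Lipid droplet genes included opposite extremes. Cidea, a droplet fusion protein known from brown fat, had 204, 212 and 227 with dCTD, against 3.67, 0 and 4.49 with LacZ, a log2 fold change of 6.19 ± 0.60 (limma, adjusted p = 5.8e-05). Hsd17b13, a droplet-bound dehydrogenase described in liver, had 64.5, 81.0 and 97.9 with dCTD, against 1586, 1465 and 1419 with LacZ, a log2 fold change of -4.20 ± 0.12 (limma, adjusted p = 4.0e-16), the lowest value among regularly named genes with a mean of at least 50. No library of either gene reached the range of the other group. The lipase Pnpla2 rose by 1.07 ± 0.04. Over the list 11 of 18 were higher and 3 lower. Of 25 sterol and lipid synthesis genes 5 were higher and 6 lower, near the background: the sterol reductase Dhcr7 fell by 0.66 ± 0.04 and the SREBP retention gene Insig1 rose by 0.41 ± 0.04.

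The regulators that PGC-1α works with did not move as one. Of 30 tested genes of its network, 14 were higher and 8 lower (median 0.11). Perm1, a muscle protein induced by PGC-1 and ERR that supports oxidative genes, had 4083, 4568 and 4463 with dCTD, against 43.1, 48.6 and 43.1 with LacZ, a log2 fold change of 6.57 ± 0.08 (limma, adjusted p = 8.2e-26). Esrra, the gene for ERRα, had 10646, 9928 and 10545 with dCTD, against 2633, 3259.6 and 3029 with LacZ, a log2 fold change of 1.81 ± 0.06 (limma, adjusted p = 1.0e-12). Each had all dCTD libraries above all LacZ libraries. The other ERR genes went apart, as Esrrb rose by 0.85 ± 0.08 and Esrrg fell by 0.87 ± 0.12. Nr0b2, a receptor without a DNA-binding domain that represses others, had 62.4, 85.9 and 70.5 with dCTD, against 0, 0 and 0 with LacZ. Against a floor of 3 reads over the 3 LacZ libraries it was at least 77.8-fold higher. Ppara, the receptor for fatty acids, rose by 1.26 ± 0.17. Gabpa, an ETS factor for mitochondrial genes, rose by 0.37 ± 0.04, but 6.98% of its exon bases are shared with the ATP synthase gene Atp5j. Atp5j lies on the other strand and had a mean of 37514 with dCTD and 21439 with LacZ. The nuclear respiratory factor Nrf1 did not pass at -0.07 ± 0.04 (limma, adjusted p = 0.24). Ppargc1b, the sister coactivator, fell by 0.41 ± 0.07.

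On the contractile side more genes fell than rose. Of the fast fibre list 10 of 15 were lower and 1 higher (median -0.31), of the slow fibre list 8 of 15 lower and 4 higher (-0.32) and of the developmental and shared list 17 of 25 lower and 7 higher (-0.23). Myh3, the embryonic myosin heavy chain, had 44707, 50309 and 50529.7 with dCTD, against 166504, 170512 and 164202 with LacZ, a log2 fold change of -1.79 ± 0.04 (limma, adjusted p = 8.4e-20). Mylpf, the fast regulatory light chain shown above, had 293817, 299164 and 339113 with dCTD, against 520379, 544491 and 521522 with LacZ, a log2 fold change of -0.77 ± 0.05 (limma, adjusted p = 4.2e-12). Acta1, skeletal actin, had 177968, 166490 and 171931 with dCTD, against 264298, 290010 and 272975 with LacZ, a log2 fold change of -0.68 ± 0.04 (limma, adjusted p = 2.7e-12). In all of these the dCTD libraries lay below the LacZ libraries, at 29%, 58.8% and 62.4% of the LacZ mean. The fast Myh1 fell by 0.28 ± 0.04, the slow Myh7 fell by 0.75 ± 0.05, the Z-disc genes Myoz1 and Csrp3 by 1.27 ± 0.09 and 1.18 ± 0.07. Reads of the near-identical myosin genes may have been divided in counting.

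Some contractile genes went the other way. Myl2, the slow and cardiac regulatory light chain, had 6474, 8388 and 8796 with dCTD, against 2339.9, 2554 and 2471 with LacZ, a log2 fold change of 1.67 ± 0.12 (limma, adjusted p = 9.7e-05), with dCTD replicate 1 the lowest of its group. Tpm3, the slow tropomyosin gene, had 99623, 107397 and 112172 with dCTD, against 33773, 34119 and 34395 with LacZ, a log2 fold change of 1.64 ± 0.04 (limma, adjusted p = 1.1e-19). Mybpc1, a slow myosin-binding protein, rose by 1.25 ± 0.04. Pvalb, a calcium buffer of fast fibres, was the 1 gene of the fast list that rose, by 1.36 ± 0.07; a second did so without LacZ replicate 1. The lists of fast and slow fibre genes thus each held members in both directions.

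**Figure D3:**
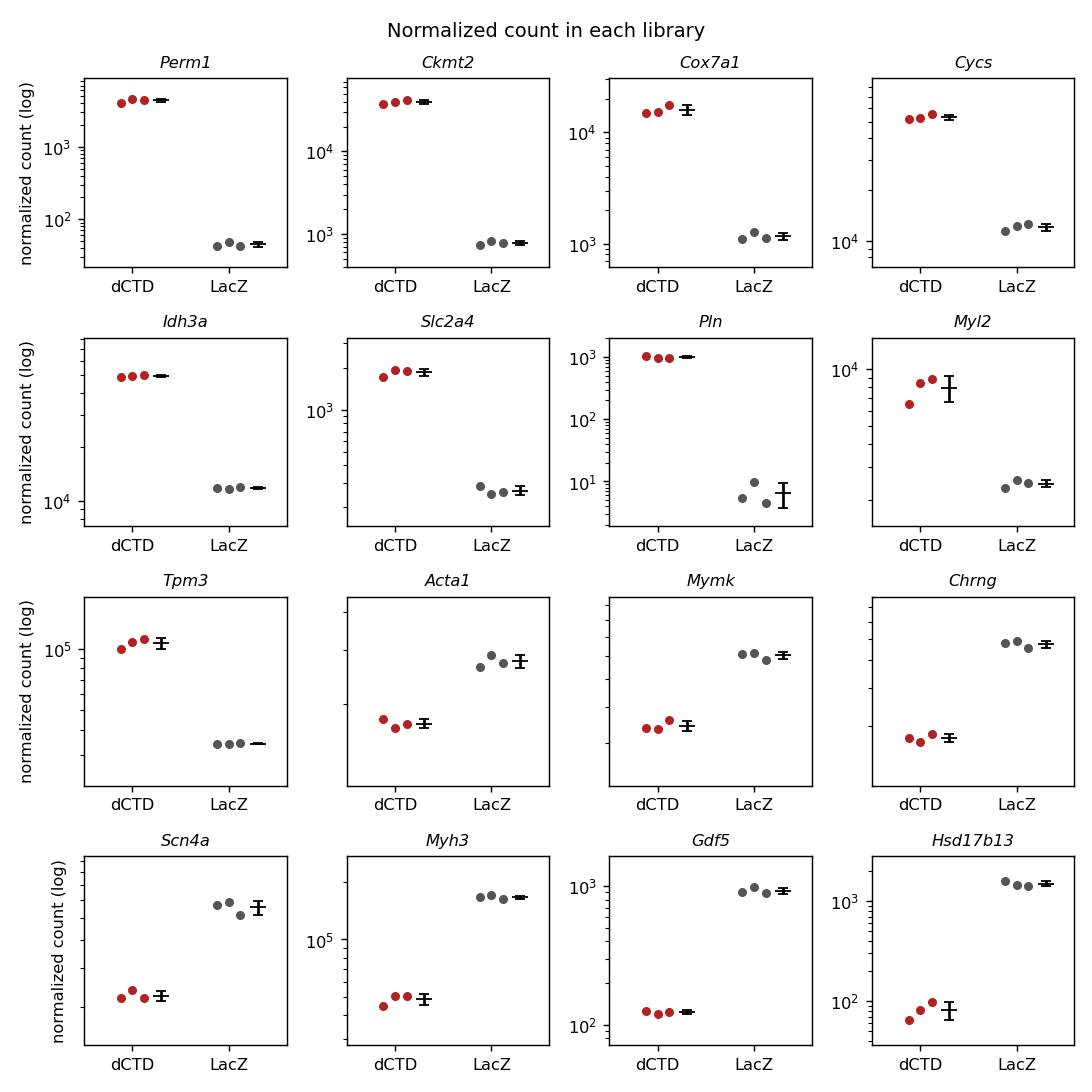
Normalized count (vertical log axes) of 16 genes in each library, 3 dCTD libraries as red points and 3 LacZ libraries as grey points, with a bar at the mean and whiskers of 1 SD. In each panel the groups are apart, with Perm1 to Tpm3 higher and Acta1 to Hsd17b13 lower with dCTD.

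Excitation, calcium handling and the neuromuscular junction also lost more members than they gained. In the excitation list 17 of 29 fell and 11 rose, and in the junction list 13 of 19 fell and 4 rose (medians -0.17 and -0.34). The muscle sodium channel Scn4a had 2183, 2378 and 2187 with dCTD, against 5696, 5884 and 5132 with LacZ, a log2 fold change of -1.31 ± 0.05 (limma, adjusted p = 5.9e-16). The calcium channel Cacna1s, its partner Stac3 and the calcium store protein Casq1 fell by 0.91 ± 0.04, 1.20 ± 0.05 and 1.12 ± 0.04. The release channel Ryr1 did not pass at -0.08 ± 0.05 (adjusted p = 0.15), except without LacZ replicate 3 (0.041). Pln, the inhibitor of the calcium pump known from slow and cardiac muscle, rose sharply, with 1024, 951 and 972 with dCTD, against 5.50, 9.71 and 4.49 with LacZ, a log2 fold change of 7.08 ± 0.19 (limma, adjusted p = 2.8e-17). It shares 5.11% of its exon bases with Cep85l on the other strand, which had a mean of 2352 with dCTD and 1392 with LacZ. The sodium pump subunit Atp1b1 and the ATP-gated potassium channel Kcnj11 rose by 2.77 ± 0.04 and 2.05 ± 0.10.

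Of the acetylcholine receptor genes in the junction list, the adult ε subunit gene Chrne did not pass at -0.11 ± 0.09 (adjusted p = 0.34), with overlapping groups, and the others fell. Chrng, for the fetal γ subunit, had 17665, 16974 and 18459.8 with dCTD, against 47821, 49026 and 45560.4 with LacZ, a log2 fold change of -1.42 ± 0.04 (limma, adjusted p = 7.6e-19). Chrnd and Chrna1 fell by 0.86 ± 0.04 and 0.52 ± 0.04, Musk, the kinase that clusters the receptor, by 0.46 ± 0.04 and the neuregulin receptor Erbb3 by 1.22 ± 0.04. Colq, which anchors acetylcholinesterase at the synapse, rose by 0.61 ± 0.06. Of the myogenic factors 11 of 22 were lower and 4 higher. Myod1 and Myog, which start and drive differentiation, fell by 0.49 ± 0.04 and 0.59 ± 0.04. The fusion proteins Mymk and Mymx fell by 0.81 ± 0.04 and 0.90 ± 0.05. Myf5, an early factor of the same family as Myod1, rose by 0.79 ± 0.05, and the stem cell factor Pax7 did not pass at 0.06 ± 0.04. For Mymk the counts were 33761, 33354 and 35990.2 with dCTD, against 61095, 61673 and 58391 with LacZ, with no overlap.

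Among secreted and vascular genes 10 of 20 angiogenic and hypoxia genes were higher and 2 lower. Vegfa and Vegfb, vessel growth factors, rose by 0.56 ± 0.04 and 0.89 ± 0.05, and Epas1, a hypoxia factor, had 227, 252 and 255 with dCTD, against 47.7, 55.4 and 47.6 with LacZ, a log2 fold change of 2.26 ± 0.13 (limma, adjusted p = 3.5e-13). Spp1, a secreted matrix phosphoprotein linked to PGC-1α and vessel growth in muscle, had 310371, 326928 and 331102 with dCTD, against 211117, 214772 and 218214 with LacZ, a log2 fold change of 0.59 ± 0.04 (limma, adjusted p = 1.4e-11). Thbs1, which restrains vessel growth, fell by 0.31 ± 0.05. Of the secreted muscle factors, Fndc5 and Il15 rose by 0.73 ± 0.04 and 1.06 ± 0.07, Gdf15 by 0.53 ± 0.11, and Fgf21 fell by 0.90 ± 0.08. In the matrix and TGF-β list 15 of 32 were lower and 3 higher. Fibronectin, Fn1, lost more normalized counts than any other gene: its counts were 1250980, 1238890 and 1246990 with dCTD, against 1770910, 1523450 and 1470020 with LacZ, a log2 fold change of -0.35 ± 0.05 (limma, adjusted p = 1.8e-05), with LacZ replicate 1 the highest. The protease inhibitor Timp2 fell by 0.48 ± 0.04, while Tnxb, a tenascin of connective tissue, had 312, 361 and 323 with dCTD, against 0.917, 2.91 and 0.898 with LacZ, a log2 fold change of 7.10 ± 0.27 (limma, adjusted p = 1.4e-16). The imprinted lncRNA H19, abundant in differentiating muscle, had 303754, 312996 and 330896 with dCTD, against 550212, 660778 and 635528 with LacZ, a log2 fold change of -0.96 ± 0.06 (limma, adjusted p = 4.4e-11).

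With Ppargc1a left out, the 6 largest gains of mean normalized count, with Atp5b, Mdh1, Spp1, Gapdh and Atp5a1 among them, made up 8.69% of all normalized counts gained, and the 6 largest losses, of Fn1, H19, Mylpf, Myh3, Acta1 and Thbs1, 14.6% of all lost. The top 100 genes on each side held 39.8% of the gains and 41.7% of the losses. Atp5b and Atp5a1 are genes of ATP synthase, and of the 6 losses 3 are contractile genes.

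The highest fold changes belonged to genes almost silent with LacZ, several of them outside the mitochondrion. Tmprss13, a membrane serine protease, had 254, 347 and 298 with dCTD, against 0, 0 and 0 with LacZ, which is at least 320.0-fold higher against a floor of 3 reads over the LacZ group. Prlr, the prolactin receptor, had 141, 182 and 166 with dCTD, against 0, 0.971 and 0.898 with LacZ. From 2 reads with LacZ its ratio was 262 (95% exact interval 72.0 to 2166). Bcan, a proteoglycan known from brain, had 165, 161 and 167 with dCTD, against 0.917, 0.971 and 0.898 with LacZ, a ratio of 177 (60.3 to 863) from 3 reads. In each of these all dCTD libraries had over 100 normalized counts and no LacZ library reached 1. Cend1, a cell cycle exit protein of neurons, rose by 6.79 ± 0.25 and Fa2h, which hydroxylates fatty acids, by 6.39 ± 0.43. In all, 36 genes had 0 reads with LacZ and at least 10 with dCTD, and 13 genes the reverse. Intervals and floors cover counting error only.

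The lowest fold changes beside that of Hsd17b13 belonged to genes of mixed kinds. Gdf5, a BMP-family growth factor, had 126, 119 and 124 with dCTD, against 902, 981 and 892 with LacZ, a log2 fold change of -2.90 ± 0.08 (limma, adjusted p = 7.3e-19). Ly6a2, annotated as a transcribed unprocessed pseudogene, had 310.0, 273 and 321 with dCTD, against 2321, 2439 and 2362 with LacZ, a log2 fold change of -2.98 ± 0.07 (limma, adjusted p = 8.0e-21). In both the dCTD libraries lay far below all LacZ libraries, where no overlap was a condition of selection. Reads of Ly6a2 may be divided with near-identical copies. Lrrc26, an accessory subunit of a potassium channel, fell by 3.99 ± 0.22, the chemokine receptor Ccr9 by 2.94 ± 0.15, Smim6 by 2.93 ± 0.12, the pluripotency-linked Dppa2 by 2.76 ± 0.20, the skin protease Asprv1 by 2.70 ± 0.14 and the galectin Lgals12 by 2.62 ± 0.12. The transglutaminase Tgm1 fell by 2.55 ± 0.20. Of Ccr9's exon bases 18.8% are shared with Gm17021 on the other strand, which had a mean of 25.2 with dCTD against 30.0 for Ccr9. With LacZ the means were 28.0 for Gm17021 and 236 for Ccr9.

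Interferon, stress response, cell cycle and proteasome genes passed in both directions. These lists were near the background of 23.1% higher and 21.7% lower, with fewer higher interferon genes and more higher cell cycle genes. Of interferon genes 3 of 26 were higher and 5 lower (median -0.06), 3 lower without LacZ replicate 2. Isg15, a ubiquitin-like antiviral protein, had 433, 392 and 442 with dCTD, against 467, 506 and 419.5 with LacZ, and did not pass at -0.13 ± 0.08 (limma, adjusted p = 0.20). Oasl2, of the oligoadenylate synthetase-like family, rose by 0.54 ± 0.10, while Mx1 fell by 2.20 ± 0.40. Of stress response genes 7 of 28 were higher and 7 lower. Ddit3, the CHOP factor, rose by 0.86 ± 0.06, its regulator Atf4 did not pass at 0.05 ± 0.04, except without LacZ replicate 1 (adjusted p = 0.044), and the serine synthesis gene Psat1 and the amino acid transporter Slc7a5 fell by 0.38 ± 0.04 and 0.42 ± 0.08. Cell cycle genes were higher in 8 of 26 cases and lower in 5, and 5 were higher without LacZ replicate 2 or under total-count scaling. Rrm2 and Ccne1, for DNA precursors and S phase entry, rose by 0.27 ± 0.04 and 0.51 ± 0.07, and the proliferation marker Mki67 did not pass at 0.10 ± 0.05, except without LacZ replicate 1 (adjusted p = 0.045). Cdkn1a, the p21 inhibitor that is high in myotubes, had 70081, 66715 and 69036 with dCTD, against 136057, 140332 and 135934 with LacZ, a log2 fold change of -1.0 ± 0.04 (limma, adjusted p = 1.9e-16). Proteasome genes were higher in 8 of 31 cases and lower in 8. Cytosolic ribosome genes passed in 1 direction only, higher in 0 of 44 cases and lower in 19, by at most 0.20 log2 units, and 7 were lower without dCTD replicate 2 or LacZ replicate 3. Of the ubiquitin ligases of muscle atrophy, Trim63 fell by 0.58 ± 0.04 and Fbxo32 rose by 0.20 ± 0.04.

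RNA processing genes changed little. Of 39 splicing genes 3 were higher and 6 lower, below the background in each direction, with a median of -0.02. The splicing factor Mbnl2 rose by 0.40 ± 0.04 and the muscle splicing factor Rbm24 fell by 0.32 ± 0.04. The count of higher genes was 1 without dCTD replicate 2 and 5 without dCTD replicate 3. The nuclear lncRNA Malat1 did not pass at 0.26 ± 0.12 (limma, adjusted p = 0.15), though it did without dCTD replicate 1 (0.048) or LacZ replicate 1 (0.027). Gene counts do not show which exons were used.

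dCTD was then set against FL directly, on reads scaled together over the 9 libraries. FL and dCTD libraries share their LacZ controls, so only this direct test is given for differences. With dCTD 3228 of 18129 genes were higher than with FL (17.8%) and 4053 lower (22.4%), or 40.2% in all. Scaling by total count instead moved the median gene by 0.0671 log2 units toward dCTD and gave 5411 higher and 3139 lower, so the direction of small differences depends on the scaling. For Ppargc1a itself the joint counts were 100543, 121631 and 116095 with dCTD, against 227297, 198071 and 209100 with FL, and the fit placed dCTD at -0.91 ± 0.07 on the log2 scale (limma, adjusted p = 2.0e-06). The deletion shortens the transcript that is counted, and differences in the amount of coactivator and in its structure cannot be told apart in these libraries.

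Most genes of the respiratory chain and TCA cycle stood lower with dCTD than with FL. In this test 27 of 36 complex I genes, 11 of 13 of complexes II and III, 9 of 15 of complex IV with cytochrome c, 12 of 16 of ATP synthase and 22 of 26 TCA cycle genes were lower with dCTD. Their median log2 differences were -0.29, -0.34, -0.16, -0.26 and -0.36, and under total-count scaling 24, 10, 7, 10 and 20 were lower. Cs differed by -1.23 ± 0.04, Cycs by -0.79 ± 0.04, Bdh1 by -1.80 ± 0.04, Perm1 by -1.0 ± 0.04 and Esrra by -0.88 ± 0.04. Far larger were the gaps of Nr0b2 at -4.16 ± 0.10, Cidea at -3.36 ± 0.07, Tnxb at -2.91 ± 0.06 and Epas1 at -2.59 ± 0.07. Thus these genes rose over LacZ without the domain but stood below their level with it.

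Other genes were higher with dCTD than with FL. Pln was higher by 1.75 ± 0.07 (adjusted p = 9.8e-19), Tmprss13 by 2.24 ± 0.14, Myl2 by 1.39 ± 0.14, Prlr by 1.27 ± 0.14 and Mybpc1 by 1.08 ± 0.04. Ckmt2 was higher by 0.44 ± 0.04, unlike most respiratory chain genes. For Pln the jointly scaled counts were 1010.5, 940.2 and 959.6 with dCTD, against 285, 286 and 293 with FL, without overlap. The contractile genes stood higher as a group: 11 of 15 fast, 8 of 15 slow and 18 of 25 developmental and shared genes were higher with dCTD and 1, 3 and 3 lower. Myh1 was higher by 0.87 ± 0.04 and Ckm by 0.66 ± 0.04, while Myh3 did not pass at -0.10 ± 0.04, except without dCTD replicate 2 (adjusted p = 0.025) or 3 (0.015).

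Interferon, stress response and cell cycle genes stood lower with dCTD than with FL. Of interferon genes 20 of 25 were lower with dCTD than with FL and 0 higher, of stress response genes 25 of 28 and 0, and of cell cycle genes 22 of 26 and 0, with medians of -0.85, -0.43 and -0.44. Total-count scaling gave 18, 24 and 20 lower and 1 higher in each. Isg15 had 427, 387 and 436 with dCTD, against 1211, 1235 and 1243 with FL on the joint scale, a difference of -1.56 ± 0.06 (limma, adjusted p = 2.0e-18). Ddit3 differed by -1.51 ± 0.04, Gdf15, a stress-induced hormone, by -1.88 ± 0.13, Atf4 by -0.63 ± 0.04, Rrm2 by -1.01 ± 0.04 and Mki67 by -0.56 ± 0.04. In all of these the dCTD libraries lay below the FL libraries.

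**Figure D4:**
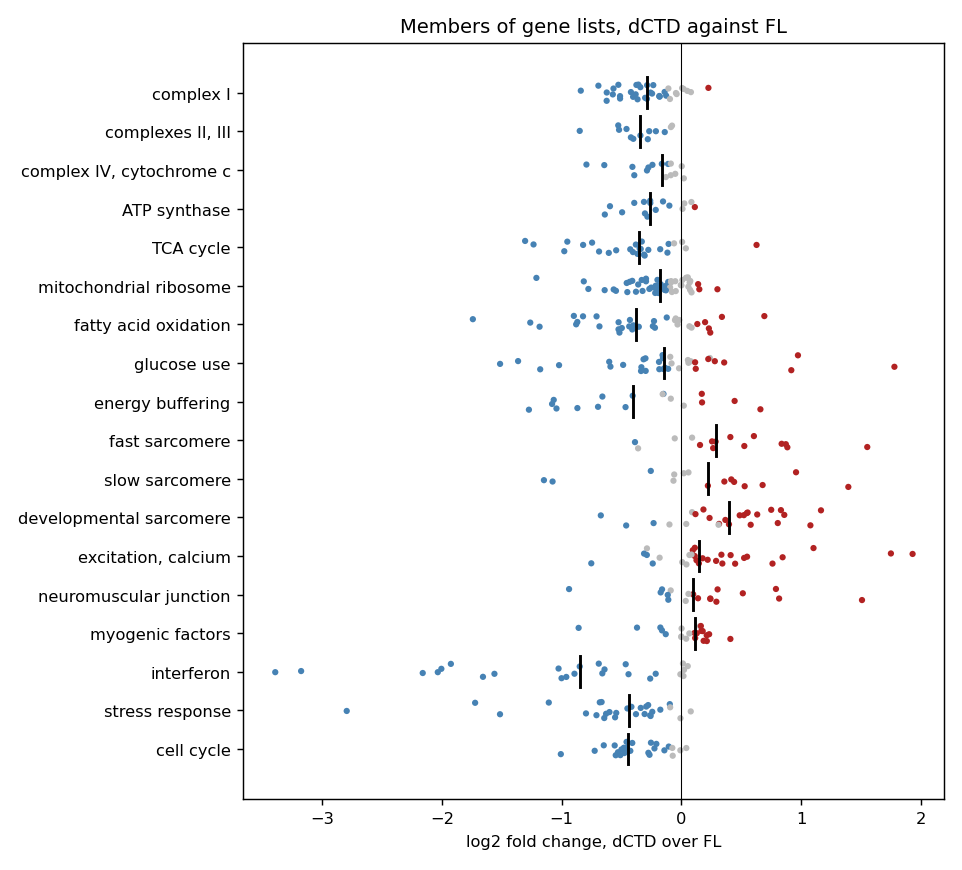
Log2 fold change of dCTD over FL for the tested members of 18 gene lists. Red points were higher and blue points lower with dCTD, grey points did not pass and black bars are medians, which lie at -0.85 for interferon, -0.43 for stress response and -0.44 for cell cycle genes and above 0 for the contractile lists.

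Markers of other cell types were summed per library, and abundant members carry these sums. Of 10 liver markers 0 reached the filter, and the summed normalized count of the macrophage list was 724 to 732 with dCTD and 778 to 818 with LacZ, with 0 of 6 tested members higher and 2 lower. The endothelial list summed to 722 to 805 with dCTD and 675 to 818 with LacZ, with 1 of 5 tested members higher and 1 lower. The adipocyte list summed to 18295 to 18742 with dCTD and 17696 to 18223 with LacZ, with 1 of 3 higher and 0 lower, and the fibroblast list to 534158 to 555115 with dCTD and 545961 to 566199 with LacZ, with 2 of 9 higher and 0 lower. The brown fat list summed to 46170.4 to 46367 with dCTD and 45638 to 46569.8 with LacZ, and 3 of its 6 tested members were higher, Cidea and Cox8b as given above among them, and 1 lower. Listed at 0 in all libraries were Alb, G6pc and Serpina1a of the liver list, Emcn of the endothelial list, Cfd of the adipocyte list, Tcf21 of the fibroblast list and Tbx5 and Hand2 of the cardiac list. That list summed to 1629 to 1776 with dCTD and 1373 to 1486 with LacZ, without overlap, with 2 of 4 tested members higher and 1 lower. The myoblast list, which stands for unfused cells, summed to 341879 to 344948 with dCTD and 393962 to 411187 with LacZ, so it was lower with dCTD, with 7 of 16 members higher and 5 lower. Its part in the falls of contractile genes was not tested.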

How the data were processed

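RNA-seq libraries of C2C12 myotubes were made from polyadenylated RNA with a stranded kit, per the labels' protocols. The series' design text calls libraries of a group biological replicates. The p-values set group differences against the spread between these samples, all of them cultures of the C2C12 line. The submitters' processing notes list these tools: for trimming Trim Galore 0.4.3.1, for quality FastQC 0.72, the aligner STAR 2.7.2b, the counter featureCounts 1.6.4, and DESeq2 2.11.40.6, with mm10. Whether counting used strand is not given in the sources used here, so reads of genes that share exon bases on opposite strands may not have been separated.

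Per the file headers, the authors deposited a signal of normalized counts per library for 55421 genes. Divided by the value of 1 read in each library, 100% of 317312 values above 0 were whole reads within a tolerance of 0.001. The authors' log2 fold changes, their score columns (standard error and Wald statistic) and their p-values stand in the same deposited table. Applying a threshold of 0.05 to the adjusted p in the authors' deposited table gave 3826 genes higher and 3544 lower. Of these 7370 genes 7178 were also called here, all 7178 in the same direction. For 14 genes a name turned into a date was restored from the identifier. Start positions were raised by 1 to count from 1.

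The dCTD and LacZ libraries were compared with limma 3.58.1 in R 4.3.3 on log2(normalized count + 1), with trended and robust variances, over genes whose mean count reached 10. Tests were two-sided, with Benjamini-Hochberg adjustment over all tested genes and a threshold of 0.05. The pseudocount makes the fold change of low genes too small. Values after ± are standard errors for log2 fold changes and SDs for counts. On the recovered reads edgeR 4.0.16 (quasi-likelihood test) called 4267 genes higher and 3836 lower, and DESeq2 1.42.0 called 3909 higher and 3615 lower. For dCTD against FL, reads of the 9 libraries were put on 1 scale by median-of-ratios factors and tested in the same way. The fits were tested on simulated data. Exon overlaps come from GENCODE M21, where 54985 of 55240 matched genes have the deposited coordinates, and promoters from RefSeq.

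The comparison and the gene lists were chosen with earlier results of these data known. Lists are described by counts and medians. Named genes are Ppargc1a, the 10 highest and 10 lowest fold changes among genes with a mean of at least 50 and no overlap, the 6 largest gains and 6 largest losses, the 5 leading genes with 0 reads in 1 group, and for each list its key members and the 2 highest and 2 lowest called. Not every gene so selected is reported here. The 11 genes Esrrb, Ndufa7, Atpif1, Pcx, Hk1, Kcnj11, Casq1, Chrnd, Rrm2, Sdhd and Des fall outside this rule. Des was taken as a muscle marker, and the others were chosen after their values were seen. Alternatives were another pseudocount, filter, scaling and tool, a minimum change of 1.5-fold, a replicate block and leaving out each replicate.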

Additional observations from a re-analysis of the deposited data

How the results depend on the processing

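Of 14 alternative settings for dCTD against LacZ, a test for changes beyond 1.5-fold moved the counts of called genes by over 1.5 times, to 920.0 higher and 478 lower, against 4172 and 3922. Genes at least 2-fold lower numbered 801 with no filter and 265 with a mean of at least 50, against 480.0. Leaving out 1 library gave 3763 to 3966 higher and 3395 to 3748 lower. Against FL, total-count scaling gave 5411 higher with dCTD, against 3228. Same-numbered libraries correlated at -0.067 to -0.042 for dCTD and LacZ, so the numbers do not pair these samples. For dCTD and FL, same-numbered libraries correlated at 0.036 to 0.073 and differently numbered ones at -0.060 to -0.0046. A weak pairing by number is thus not excluded for dCTD and FL. With a replicate block 3894 genes were higher and 3502 lower with dCTD than with LacZ, and 3302 higher and 4129 lower than with FL. Of 149 genes of the text 137 were called against LacZ. Of these, 3 missed the threshold under a setting other than the 1.5-fold test (Ndufa7, Atpif1 and Ldha), 40 missed it at 1.5-fold and 0 reversed. With 3 libraries a group and few reads, a small change of a low gene was not detectable.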

Other observations

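Signalling genes not described above also differed between dCTD and LacZ. Of 26 kinase and nutrient signalling genes 14 were higher and 6 lower. The subunits of AMPK, the energy-sensing kinase, went in both directions: the catalytic α2 gene Prkaa2 had 7812, 8092 and 7224 with dCTD, against 3629, 3428 and 3564 with LacZ, a log2 fold change of 1.12 ± 0.04 (limma, adjusted p = 2.5e-16), and the muscle γ3 gene Prkag3 had 5246, 5247 and 5313 with dCTD, against 13812, 13706 and 13039.8 with LacZ, a log2 fold change of -1.36 ± 0.04 (limma, adjusted p = 4.9e-19). Both were without overlap between groups. In the BMP, Notch and Wnt list 5 of 27 were higher and 9 lower. There the Wnt enhancer Rspo3 and the Wnt receptor Fzd4 rose by 1.62 ± 0.18 and 1.49 ± 0.05, while the ligand Wnt10a fell by 0.69 ± 0.07. Of 19 clock genes 5 were higher and 6 lower, with the nuclear receptor Rorb up by 0.97 ± 0.09 and the repressor Cry2 down by 0.28 ± 0.05. Cyclin D1, Ccnd1, rose by 0.48 ± 0.05, and shares 23.4% of its exon bases with LTO1 on the other strand. LTO1 had a mean of 2682 with dCTD and 3186 with LacZ.

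On chromosome X 16.2% of 573 tested genes were higher and 25.0% lower, against 23.1% and 21.7% over all tested genes.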
